A study of Homo sapiens with 6 samples.

Results

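A set of 10 genes that encode the folding machinery of the endoplasmic reticulum (ER) was followed in K562 cells. They are HSPA5, HSP90B1, CALR, CANX, HYOU1, DNAJB11, DNAJC3, SDF2L1, MANF and CRELD2, and they were taken by gene symbol as 10 of the 24960 genes in the count table. K562 is an established suspension cell line from a patient with chronic myeloid leukemia (CML). Each of the control and hyperoside (2 mM) groups had 3 RNA libraries. Hyperoside is a plant flavonol, quercetin joined to galactose, and the comparison asks which transcripts differ after exposure to it. The labels give both groups the same cell line, leukemia as disease state and bone as tissue, and they differ in treatment alone (Control or Hyperoside). No genetic change was made, a solvent for the control is not named, and the time between the addition of hyperoside and RNA extraction is not given in the sources used here. The study's general statement on statistics speaks of repeated experiments, but the labels do not tie the 3 libraries of a group to separate cultures, so p-values measure the spread between these libraries, which may be technical.

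Proteins that will be secreted or placed in membranes are folded in the ER. BiP, the product of HSPA5, is an HSP70 that binds and releases unfolded chains through ATP hydrolysis. Its cycle is set by J-domain proteins such as DNAJB11 and DNAJC3, which stimulate hydrolysis, and by exchange factors such as HYOU1, which free the nucleotide. GRP94, the product of HSP90B1, is the HSP90 of this compartment. Calreticulin (CALR), which is soluble, and calnexin (CANX), which is anchored in the ER membrane and so is not strictly a luminal protein, hold glycoproteins by their trimmed sugars. SDF2L1 works with DNAJB11, MANF binds BiP and is also secreted, and CRELD2 is a secreted, stress-inducible ER protein. When unfolded protein accumulates, the sensors ATF6, IRE1 (ERN1) and PERK (EIF2AK3) start the unfolded protein response, which raises the transcription of many of these genes.

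After hyperoside treatment, 9 of the 10 genes were lower and CANX was not called. The falls were graded. HSPA5 and HSP90B1 dropped to 18.7% and 23.7% of their control levels, SDF2L1, MANF and CALR to between 33.4% and 36.9%, CRELD2, DNAJB11 and HYOU1 to between 49.0% and 56.5%, and DNAJC3 to 72.8%. Of all 15095 tested genes, 23.2% were called lower. Calls are an adjusted p under 0.05 in edgeR's quasi-likelihood test on the raw counts, with Benjamini-Hochberg adjustment over all tested genes. Of the 10, 7 were also lower by more than 2-fold, HYOU1, DNAJC3 and CANX being the exceptions, against 3.76% of all tested genes. None of the 10 was called higher, against 22.1% of all tested genes. In 9 of the 10, each hyperoside library was below each control library, which held for 27.3% of all tested genes. The median log2 fold change was -1.23 over the 10 genes and 0.0032 over all tested genes.

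The promoter sequences of the family were examined for the element through which ATF6 and its partner NF-Y are known to act. This ER stress response element (ERSE) was first described in the promoters of chaperone genes such as these, so its presence is background and not an independent result. ERSE was searched as CCAAT and CCACG with 9 bases between them. ERSE-II was searched as ATTGG and CCACG with 1 base between them, each on both strands and in RefSeq windows from 250 bases before to 50 bases after the start of transcription (build GRCh38.p14). ERSE was found in 27 of 35116 windows of all genes (0.0769%) and in 5 of the 10 genes. ERSE-II was found in 19 windows (0.0541%) and in 2 of the 10. A gene was counted if any of its windows held a match, so the counts of genes and the shares of windows are not on the same scale. The stretches around these matches are shown because the same short element recurs in genes whose responses differed widely. They read 5′ to 3′ on the strand of the gene, with the matches in capitals.
HSPA5, chr9:125241371-125241429, minus strand: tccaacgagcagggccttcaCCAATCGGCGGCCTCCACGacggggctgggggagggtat
HSP90B1, chr12:103930196-103930359, plus strand: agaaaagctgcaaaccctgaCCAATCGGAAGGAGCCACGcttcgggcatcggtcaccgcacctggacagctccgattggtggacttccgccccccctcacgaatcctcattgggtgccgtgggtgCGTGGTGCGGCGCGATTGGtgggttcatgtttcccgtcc
CALR, chr19:12938364-12938422, plus strand: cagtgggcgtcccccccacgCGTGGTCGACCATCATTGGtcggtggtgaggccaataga
CANX, chr5:179698758-179698816, plus strand: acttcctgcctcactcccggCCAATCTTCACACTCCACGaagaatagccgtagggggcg
CRELD2, chr22:49918534-49918592, plus strand: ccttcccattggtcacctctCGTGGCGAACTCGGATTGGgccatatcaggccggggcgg
HYOU1, chr11:119057254-119057410, minus strand: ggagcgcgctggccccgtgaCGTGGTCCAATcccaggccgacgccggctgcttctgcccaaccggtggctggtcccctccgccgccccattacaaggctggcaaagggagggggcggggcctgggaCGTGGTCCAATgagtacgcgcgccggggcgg
SDF2L1, chr22:21642094-21642144, plus strand: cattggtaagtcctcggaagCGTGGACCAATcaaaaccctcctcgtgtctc

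The ERSE of HSPA5 lies between -66 and -48 relative to the start and runs forward. HSP90B1 holds 2 matches, forward at -194 to -176 and reverse at -89 to -71. CALR (-225 to -207) and CRELD2 (-80 to -62) each hold 1 reverse match, and CANX holds 1 forward match at -151 to -133 in 1 of its 4 RefSeq windows. HYOU1 carries the same 11 bases of ERSE-II at -185 to -175 and at -79 to -69, and SDF2L1 carries a reverse ERSE-II at -188 to -178. No match to either was found in the windows of MANF, DNAJB11 and DNAJC3. Matches and responses did not run in parallel for every gene. CANX, which was not called, held an ERSE. MANF, which fell to 35.1% of control, had no exact match to either form in its windows. Only exact matches inside the windows were counted, so an element with a changed base or outside the windows would be missed. The XBP1-type element TGACGTGG occurred in 0.729% of windows and in HYOU1 alone among the 10, where it overlaps the upstream ERSE-II. The amino acid response form, TGATG and AA with 1 base between them, occurred in 3.62% of windows and in 0 of the 10. A match is a description of letters in the window and shows neither binding nor a cause.

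**Figure D1:**
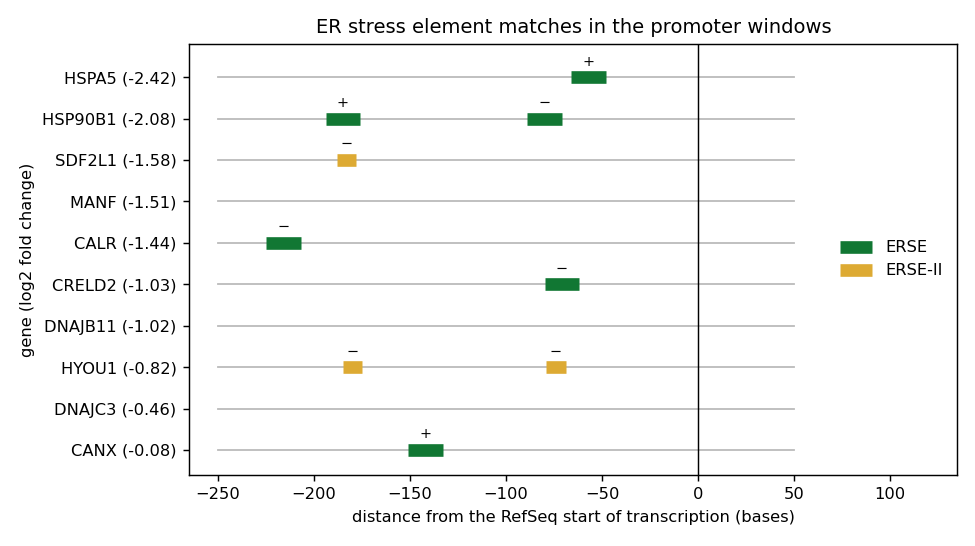
Positions of ERSE (green) and ERSE-II (yellow) matches in the promoter window of each gene, with distance from the RefSeq start of transcription in bases on the x axis and genes ordered by log2 fold change, which stands in parentheses. Plus and minus mark the orientation, and grey lines are the windows. Exact matches are present in 7 of the 10 genes, among them HSPA5 (-2.42) and CANX (-0.08), and none was found in MANF (-1.51).

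Genes elsewhere in the genome that carry either element were read in the same table. Of the genes in the count table, 43 had a RefSeq window with an ERSE or ERSE-II. Of these, 34 were tested, 20 were lower and 2 were higher. Without the 7 of the ER chaperone set, 27 were tested, 14 were lower and 2 were higher, with a median log2 fold change of -0.46. These 27 still hold other ER genes, among them HERPUD1, ERO1B, PDIA6 and XBP1. Among all 11952 tested genes with a window, 2808 (23.5%) were lower and 2642 were higher, with a median log2 fold change of -0.00036. Of the 27, the 4 with the smallest adjusted p were HERPUD1 (log2 fold change -2.22), ERO1B (-1.32), PDIA6 (-0.63) and the transcription factor gene ZNF143 (-0.89).

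Sequencing depth was even. The library totals ran from 35613283 to 36754725 counts, and the 10 genes had between 378 and 190266 counts in each library. Control 1 stood somewhat apart from the other control libraries. The chi-square per degree of freedom was 21.3 and 24.4 between control 1 and the others, 6.46 between controls 2 and 3, and 7.57 to 14.02 among hyperoside libraries. Control 1 was the highest control library for 8 of the 10 genes, so each fold change without it is given below. Hyperoside 2 was the lowest hyperoside library for 8 of the 10 genes. Without hyperoside 2, 9 of the 10 were called lower and 7 were lower by more than 2-fold. Without control 1, 9 of the 10 genes were still called lower and 5 were lower by more than 2-fold, DNAJB11 and CRELD2 falling just short. The erythroid markers HBG1, HBG2, HBE1, GATA1, TAL1 and KLF1 were all present, at control means of 37.3 to 3033 CPM (counts scaled to a common library total). With hyperoside 3 of these 6 were lower and 1, KLF1, was higher, against 23.2% lower and 22.1% higher over all tested genes. The part of these markers in the results below was not tested. Among markers of other cell types, CD3E, COL1A1 and ALB had control means of 0.216 to 2.77 CPM and MS4A1 had no count in the control libraries, whereas the epithelial gene EPCAM was at 78.4 CPM in the control and 77.1 CPM in the hyperoside group.

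The levels of HSPA5, at chr9:125234853-125241343 (hg38), were 5411, 4598 and 4399 CPM in control libraries 1, 2 and 3, on the TMM-normalized scale used for all CPM values here. In hyperoside libraries 1, 2 and 3 they were 922, 805 and 973 CPM. The lowest control library was far above the highest hyperoside library. The mean fell from 4803 ± 536 to 900.01 ± 86.5 CPM (SD, n = 3 per group), a log2 fold change of -2.42 (SE 0.09, 95% interval -2.60 to -2.23, adjusted p = 1.98e-12 by edgeR's quasi-likelihood test). Its F statistic, the value from which this test takes its p, was the largest of any gene with a negative log2 fold change. Without control 1 the log2 fold change was -2.32. A CPM value is a share of the sequenced RNA, so less transcript in every cell, fewer cells with a high level and a change in total RNA per cell cannot be told apart. The study reports that hyperoside lowered the viability and proliferation of CML cells and induced their apoptosis and ferroptosis. The sequenced dose lies above the median inhibitory concentration that the study gives for the cell line used here. The part of dying cells, or of a surviving fraction, in the levels of all genes described here was not tested.

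HSP90B1 (chr12:103930410-103947926), whose product GRP94 folds integrins and Toll-like receptors, followed closely. Its levels were 4150, 4043 and 3506 CPM in the control libraries and 943, 832 and 993 CPM in the hyperoside libraries. The groups were again widely separated. Group means were 3900 ± 345 and 923 ± 82.2 CPM, with a log2 fold change of -2.08 (SE 0.08, adjusted p = 3.21e-12 by edgeR) and of -2.03 without control 1. By the F statistic HSP90B1 ranked 3 among all genes with a negative log2 fold change.

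**Figure D2:**
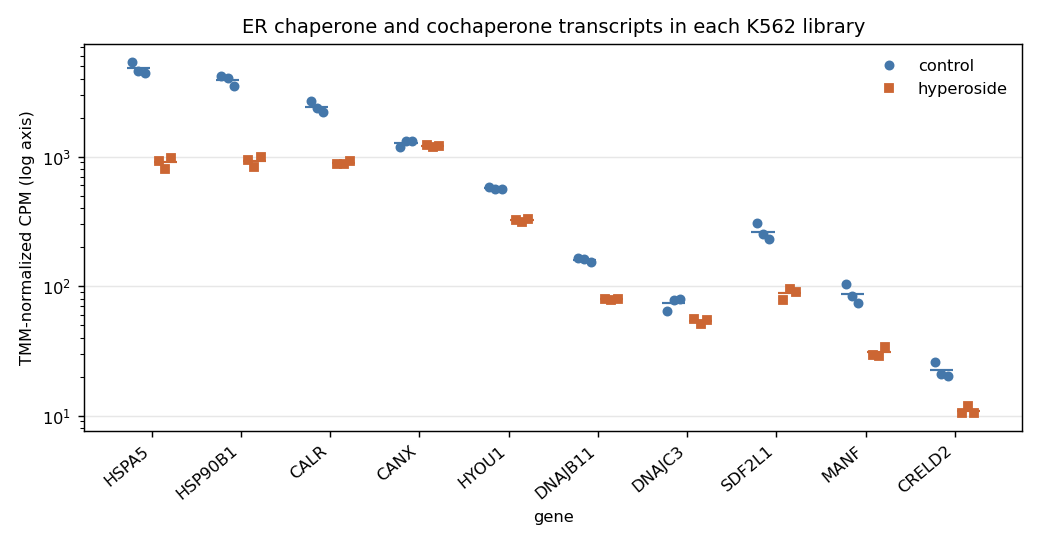
TMM-normalized CPM of each gene (log y axis) in 3 control libraries (blue circles) and 3 hyperoside libraries (orange squares), with a bar at each group mean and libraries in the order 1 to 3. The groups do not overlap in 9 of the 10 genes, while the CANX libraries lie between 1183 and 1322 CPM in the control and between 1193 and 1226 CPM in the hyperoside group.

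The log2 fold changes of the BiP partners were smaller in size than that of HSPA5, with 95% intervals that did not overlap its own. HYOU1 (GRP170, chr11:119044188-119057205), an exchange factor and holdase, measured 578, 561.7 and 564 CPM in the control libraries and 322, 310.02 and 330 CPM in the hyperoside libraries. These were among the tightest replicates of the family. The mean fell from 568 ± 8.80 to 321 ± 10.01 CPM, a log2 fold change of -0.82 (SE 0.06, adjusted p = 2.23e-08 by edgeR). Without control 1 the value was -0.81.

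DNAJB11 (ERdj3, chr3:186570720-186585793) hands unfolded chains to BiP and can be secreted with them. It measured 164, 162 and 154 CPM in the control libraries and 79.2, 77.9 and 80.07 CPM in the hyperoside libraries. The groups were well apart, and the hyperoside libraries differed by less than 3 CPM. On average the level went from 159.8 ± 5.27 to 79.0 ± 1.10 CPM, a log2 fold change of -1.02 (SE 0.07, adjusted p = 5.22e-09 by edgeR). Its 95% interval, -1.16 to -0.87, spans the 2-fold line, and without control 1 the value was -0.996.

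DNAJC3 (p58IPK, chr13:95677139-95794988), the second J-domain protein and a known inhibitor of PERK, had the smallest fall of those called. Its levels were 64.6, 77.9 and 79.1 CPM in the control libraries and 55.1, 51.1 and 55.1 CPM in the hyperoside libraries. Here control 1 was the lowest control library, and it still exceeded each hyperoside library. Group means were 73.9 ± 8.03 and 53.8 ± 2.32 CPM, with a log2 fold change of -0.46 (SE 0.09, adjusted p = 0.000448 by edgeR), or -0.54 without control 1.

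SDF2L1 (chr22:21642302-21644299), which keeps BiP clients soluble together with DNAJB11, had a 95% interval of -1.79 to -1.37, which lies beyond those of both J-domain genes. It measured 306, 251 and 231 CPM in the control libraries and 77.9, 95.5 and 89.9 CPM in the hyperoside libraries. Control 1 was well above the other controls, and the groups did not overlap. The mean fell from 263 ± 39.2 to 87.8 ± 8.98 CPM, a log2 fold change of -1.58 (SE 0.10, adjusted p = 1.75e-09 by edgeR), or -1.45 without control 1.

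MANF (chr3:51385291-51389397), which stabilizes BiP-client complexes in the ER and acts as a trophic factor outside the cell, had a log2 fold change close to that of SDF2L1. Its levels were 104, 83.0 and 74.6 CPM in the control libraries and 29.4, 28.6 and 34.0 CPM in the hyperoside libraries. It had the widest control spread relative to its mean among the 10 genes, a coefficient of variation of 17.5%, and the groups were still separate. On average the level went from 87.3 ± 15.3 to 30.7 ± 2.89 CPM, a log2 fold change of -1.51 (SE 0.11, adjusted p = 1.08e-08 by edgeR), or -1.36 without control 1.

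CRELD2 (chr22:49918634-49927537), the least abundant of the 10, measured 26.1, 20.7 and 20.04 CPM in the control libraries and 10.4, 11.8 and 10.5 CPM in the hyperoside libraries. The groups did not overlap. Group means were 22.3 ± 3.32 and 10.9 ± 0.805 CPM, with a log2 fold change of -1.03 (SE 0.12, adjusted p = 3.00e-06 by edgeR). The 95% interval of -1.29 to -0.77 spans the 2-fold line, and the value was -0.90 without control 1.

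Of the lectin chaperones, CALR was called lower and CANX was not. CALR (chr19:12938609-12944489) measured 2675, 2387 and 2203 CPM in the control libraries and 881, 868 and 931 CPM in the hyperoside libraries. The groups were far apart. The mean fell from 2422 ± 238 to 893 ± 33.3 CPM, a log2 fold change of -1.44 (SE 0.07, adjusted p = 1.32e-10 by edgeR), or -1.36 without control 1.

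CANX (chr5:179678656-179731641) measured 1183, 1322 and 1320.3 CPM in the control libraries and 1226, 1193 and 1200.03 CPM in the hyperoside libraries. The hyperoside libraries lay inside the control range. The mean was 1275 ± 80.1 in the control and 1206 ± 17.6 CPM in the hyperoside group, a log2 fold change of -0.08 (SE 0.07, adjusted p = 0.343 by edgeR). The 95% interval covers 86.0% to 104.1% of the control level, so a fall of the size seen in CALR lies outside it. Without control 1, the lowest control library for CANX, the log2 fold change was -0.13 and the adjusted p by edgeR was 0.0706, the lowest of 13 alternatives (up to 0.759).

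Part of the exon sequence of 6 of the 10 genes is shared with another annotated gene in GENCODE 29. The largest shares were 9.95% of CALR exon bases, with the antisense gene AC092069.1, and 8.66% of HYOU1 and 8.66% of DNAJB11 exon bases, also with antisense genes. DNAJB11 shares a further 7.87% with a gene on its own strand. HSPA5, DNAJC3, SDF2L1 and MANF share none. The use of strand in counting is not given in the sources used here, so reads from these stretches cannot be assigned with certainty.

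**Figure D3:**
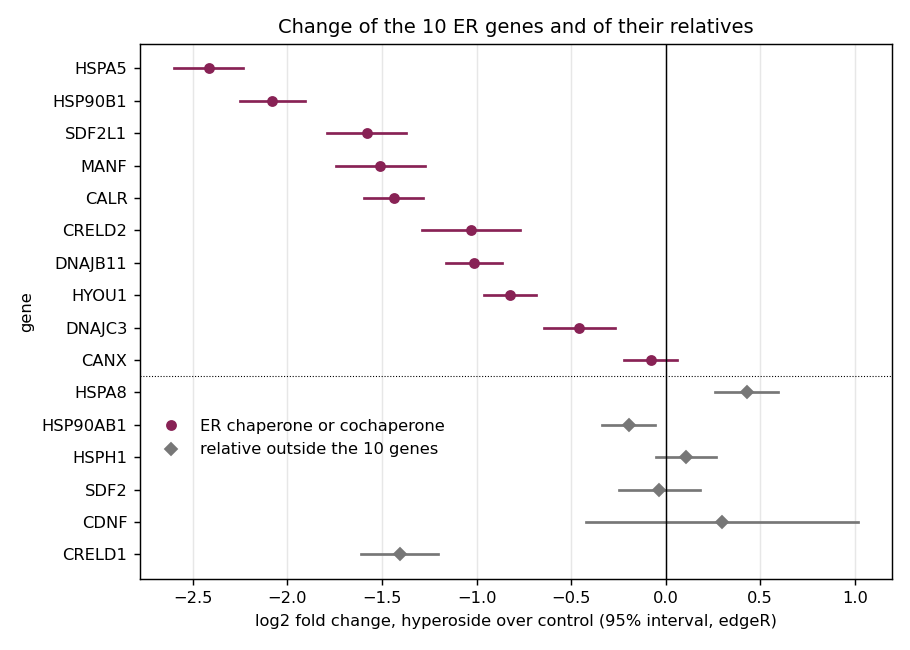
Log2 fold change of hyperoside over control (x axis) with 95% intervals from edgeR for the 10 ER genes (purple circles) and for 6 relatives of other compartments or of the same family (grey diamonds), 3 libraries per group. Values run from -2.42 for HSPA5 to -0.08 for CANX, whose interval crosses 0, and the cytosolic HSPA8 lies at 0.43.

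The 10 genes together held 1.40%, 1.33% and 1.26% of all counts in control libraries 1, 2 and 3, and 0.466%, 0.435% and 0.474% in hyperoside libraries 1, 2 and 3. The mean share was 1.33 ± 0.0718% in the control and 0.458 ± 0.0207% in the hyperoside group, with no overlap. HSPA5 and HSP90B1 alone held between 0.793% and 0.915% of control counts and between 0.166% and 0.198% of hyperoside counts. The makeup of the family also shifted. HSPA5, HSP90B1 and CALR supplied 80.5% to 83.5% of its counts in the control libraries and 58.6% to 61.7% in the hyperoside libraries. CANX supplied 8.07% to 10.5% of the counts in the control and 25.6% to 27.9% in the hyperoside group.

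**Figure D4:**
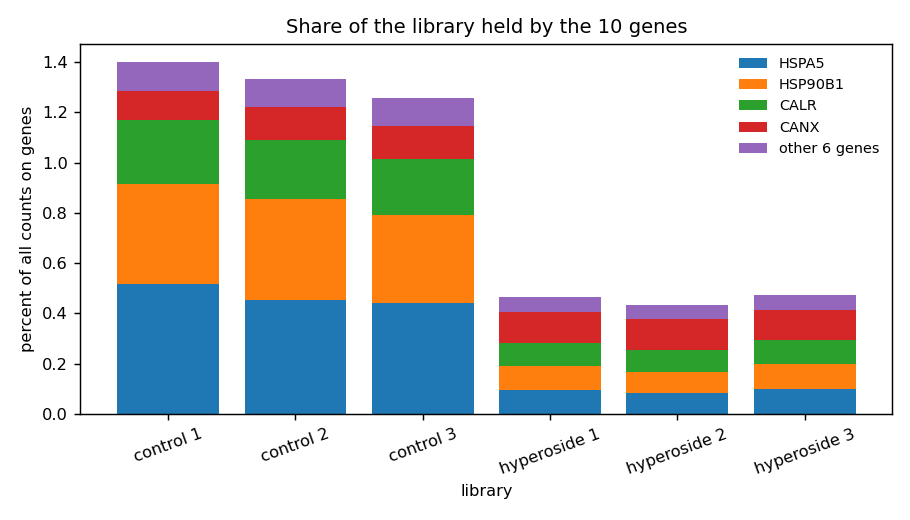
Percent of all counts on genes held by the 10 ER genes (y axis, from 0) in each of the 6 libraries, stacked by gene with the other 6 genes summed. The bars stand at 1.26% to 1.40% in the control and at 0.435% to 0.474% in the hyperoside libraries, while the CANX segment keeps nearly the same height.

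Levels of different genes were compared per length, in FPKM (fragments per kilobase of gene length, scaled to the library total). In the control group HSP90B1 (mean 1376 FPKM), CALR (1250 FPKM) and HSPA5 (1202 FPKM) led, and the ranges of neighbours in this order overlapped. These 3 formed a tier of their own, well above the rest. SDF2L1 (312 FPKM), CANX (211 FPKM) and HYOU1 (118 FPKM) followed without overlap. DNAJB11 (95.7 FPKM) and MANF (94.1 FPKM) overlapped, and DNAJC3 (10.7 FPKM) and CRELD2 (7.503 FPKM) closed the order. In the hyperoside group CALR (478 FPKM) stood above HSP90B1 (337 FPKM) and both stood above HSPA5 (233 FPKM), whose range of 209 to 250.4 FPKM overlapped that of CANX (203 to 211 FPKM). Within each hyperoside library HSPA5 remained above CANX, at 241 against 211, 209 against 204 and 250.4 against 203 FPKM. SDF2L1 (108 FPKM), HYOU1 (68.7 FPKM), DNAJB11 (49.0 FPKM), MANF (34.3 FPKM), DNAJC3 (8.01 FPKM) and CRELD2 (3.81 FPKM) followed without overlap. Among all genes of the table by mean FPKM, HSPA5 moved from rank 64 to rank 201, HSP90B1 from 52 to 144, and CALR from 61 to 110, whereas CANX moved from 242 to 226.

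Ratios between related genes within a library were compared for 9 pairs, with two-sided exact permutation tests over the 20 ways to divide 6 libraries. With 3 against 3 the smallest possible p is 0.1. All 9 pairs reached that value (0.1 also after Benjamini-Hochberg adjustment), and in none did the groups overlap, so no ratio passes 0.05 and the sizes are given as a description. The ratio of HSPA5 to HSP90B1 in FPKM was 0.925, 0.807 and 0.890 in the control and 0.694, 0.686 and 0.696 in the hyperoside libraries. This is a log2 difference of -0.33 between the group means. The ratio of CALR to CANX was 7.08, 5.65 and 5.22 in the control and 2.25, 2.28 and 2.43 in the hyperoside libraries. This is a log2 difference of -1.36, or -1.23 without control 1. The ratio of DNAJB11 to DNAJC3 was 10.5, 8.66 and 8.10 in the control and 5.97, 6.34 and 6.05 in the hyperoside libraries.

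The log2 fold changes of 3 cytosolic relatives lay between -0.20 and 0.43. HSPA8, the constitutive cytosolic HSP70, rose from 1594 ± 168 to 2144 ± 175 CPM (log2 fold change 0.43, SE 0.08, adjusted p = 0.000278 by edgeR). The HSPA5 to HSPA8 ratio in FPKM was 1.79, 1.69 and 1.79 in the control and 0.266, 0.200 and 0.274 in the hyperoside libraries. BiP transcripts thus exceeded those of HSPA8 in each control library and were below them in each hyperoside library. HSP90AB1, the constitutive cytosolic HSP90, had a log2 fold change of -0.20 (adjusted p = 0.0244 by edgeR), a call that was lost in 7 of 13 alternative settings, among them the omission of control 1, control 2, hyperoside 1 or hyperoside 3. The HSP90B1 to HSP90AB1 ratio was 1.04, 1.11 and 1.03 in the control and 0.301, 0.251 and 0.311 in the hyperoside libraries. HSPH1, the cytosolic relative of HYOU1, had a log2 fold change of 0.11 (adjusted p = 0.253 by edgeR), and the HYOU1 to HSPH1 ratio was 5.39 to 5.98 in the control and 2.71 to 3.33 in the hyperoside libraries.

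Paralogs within the secretory pathway differed from one another. SDF2, the relative of SDF2L1, had a log2 fold change of -0.03 (SE 0.10, adjusted p = 0.815 by edgeR), and the ratio of SDF2L1 to SDF2 was 14.97, 13.8 and 13.96 in the control and 4.65, 5.46 and 4.56 in the hyperoside libraries. CDNF, the relative of MANF, was scarce, with 45 to 86 counts per control library and 47 to 110 per hyperoside library, and its log2 fold change of 0.30 (SE 0.34) was not called (adjusted p = 0.502 by edgeR). With 1 library left out it moved between 0.026 (without hyperoside 3) and 0.58 (without hyperoside 1). CRELD1 went down with CRELD2. It fell from 55.5 ± 5.30 to 20.9 ± 1.15 CPM (log2 fold change -1.41, SE 0.10, adjusted p = 4.46e-09 by edgeR). The CRELD2 to CRELD1 ratio was 0.410, 0.385 and 0.366 in the control and 0.463, 0.536 and 0.516 in the hyperoside libraries, a log2 difference of 0.38 and the only one of the 9 that was positive.

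A further list of 10 genes held cochaperones of BiP and GRP94 together with the paralogs SDF2, CDNF and CRELD1. Of these 10, 2 were lower and 0 were higher, against 23.2% of all tested genes lower and 22.1% higher. Their median log2 fold change was -0.11. The lower ones were CRELD1, listed as the paralog of CRELD2, and the translocon J-protein SEC63 (log2 fold change -0.41). CNPY3, the GRP94 cochaperone for Toll-like receptors, was at -0.16 and DNAJB9, the J-protein that represses IRE1, at -0.21, and neither was called. Without control 1, DNAJB9 was called lower (log2 fold change -0.37, adjusted p = 0.00207 by edgeR, range over 13 alternatives 0.00207 to 0.577), which makes 3 lower.

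The glycan-dependent folding cycle around CALR and CANX moved both ways. Of 7 tested genes 3 were lower and 1 was higher, with a median of -0.18, against 23.2% lower and 22.1% higher over all tested genes. Without control 1, UGGT2 was also called and 4 were lower. PDIA3, the disulfide isomerase that calnexin and calreticulin recruit, fell from 595 ± 37.7 to 394 ± 2.08 CPM (log2 fold change -0.60). MOGS, the glucosidase that trims the first glucose, fell by 0.42 on the log2 scale, and CLGN, a calnexin homolog best known in testis, fell by 0.79. UGGT1, the sensor that adds glucose back to misfolded glycoproteins, rose by 0.42. CALR3 had at most 12 counts in a library and was not tested.

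Disulfide isomerases and ER oxidases counted 6 lower and 1 higher of 8, with a median of -0.35, beside the same shares over all tested genes. PDIA4 (log2 fold change -0.92), PDIA6 (-0.63) and the oxidase ERO1B (-1.32) were lower, whereas its paralog ERO1A was higher (0.70, from 97.6 ± 8.10 to 158 ± 13.7 CPM). The 3 KDEL receptors, which return escaped luminal chaperones from the Golgi, were all lower. KDELR2 was at -0.57, KDELR3 at -0.41 and KDELR1 at -0.24, and the last of these lost its call without hyperoside 2 (adjusted p = 0.0873 by edgeR, range over 13 alternatives 0.00710 to 0.0873).

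Of 9 sensors and factors of the unfolded protein response, 5 were lower and 1 was higher, with a median of -0.22, against 23.2% lower and 22.1% higher over all tested genes. DDIT3 (CHOP) fell from 261 ± 22.01 to 106 ± 9.27 CPM (log2 fold change -1.30) and ERN1 (IRE1) from 67.0 ± 4.44 to 31.8 ± 2.58 CPM (-1.07). ATF4 was at -0.72 and XBP1 at -0.46, both lower. ATF6 was at -0.22 (adjusted p = 0.0228 by edgeR), a call lost in 9 of 13 alternative settings, among them the omission of any 1 library other than control 1, so that 4 were lower in those settings. MBTPS2, the protease that makes the last cut in ATF6, was higher at 0.35. These are transcript levels and do not report on the splicing of XBP1 or the cleavage of ATF6.

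In ER-associated degradation, 4 of 10 genes were lower and 0 higher by edgeR, with a median of -0.22, against 23.2% lower and 22.1% higher over all tested genes. In 6 of 13 alternatives, DESeq2 and the fit without control 1 among them, 1 gene, OS9, was called higher. HERPUD1 fell from 179 ± 23.3 to 38.4 ± 5.42 CPM (log2 fold change -2.22). DERL3 fell from 17.5 ± 1.81 to 2.01 ± 0.976 CPM (-3.12), while the ubiquitin ligase SYVN1 was at -0.73 and its partner SEL1L at -0.35.

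Cytosolic and mitochondrial chaperones counted 4 lower and 3 higher of 11, with a median of 0.11, against 23.2% lower and 22.1% higher over all tested genes. Without hyperoside 1 the number lower was 2, since HSP90AB1 and the mitochondrial HSP90 gene TRAP1 lost their calls. The higher ones were DNAJB1 (0.85), HSPA1B (0.51) and HSPA8. HSPA1B has a near-identical copy, HSPA1A, with which it can share reads, so its value is uncertain. HSP90AA1, the inducible cytosolic HSP90, was lower (-0.69).

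**Figure D5:**
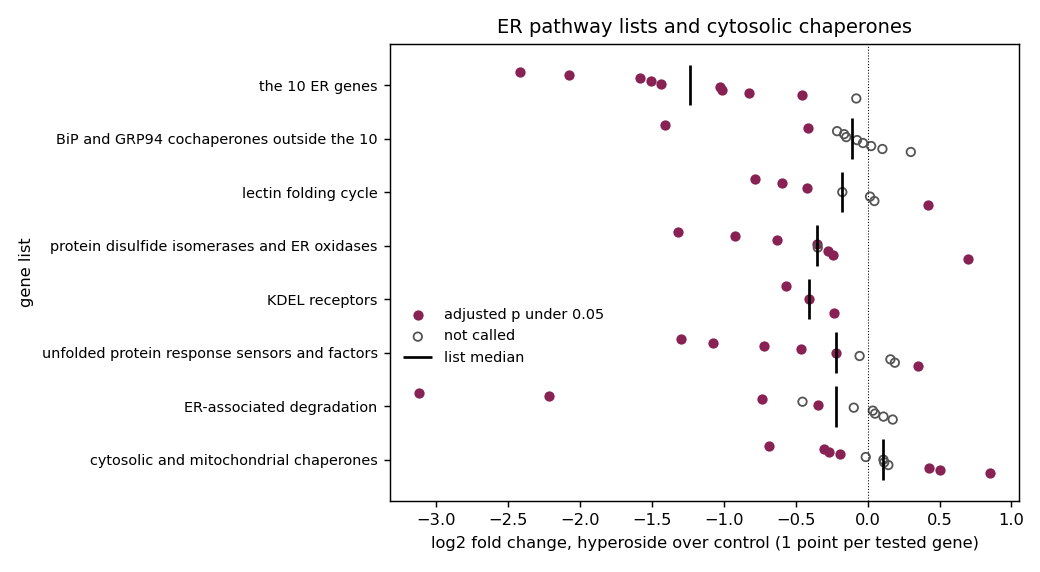
Log2 fold change of hyperoside over control (x axis) for each tested gene of the 10 ER genes and of 7 related lists, with filled points for an adjusted p under 0.05, open points for genes not called and a bar at the median. The median of the 10 ER genes is at -1.23, those of the other ER lists lie between -0.41 and -0.11, and that of the cytosolic and mitochondrial chaperones is at 0.11.

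The genes whose profile was most like that of HSPA5 were sought among 9300 genes with a mean of at least 10 CPM, by Euclidean distance over the 6 libraries between log2 CPM values centred on their control mean. HERPUD1 was the nearest (distance 0.376), followed by RIMS3 (0.441, log2 fold change -2.31), a presynaptic scaffold gene at 18.9 ± 2.28 CPM in the control. HSP90B1 ranked 3 (0.598). H2BC21 (-2.01), H4C9 (-1.98) and ATF5 (-2.00) ranked 4, 5 and 6, and the histone genes among these have close copies with which they can share reads. The other ER genes ranked 21 (SDF2L1), 28 (MANF), 36 (CALR), 138 (DNAJB11), 142 (CRELD2), 287 (HYOU1), 1256 (DNAJC3) and 4295 (CANX). The measure follows the size of the fall above all else, and likeness over 6 libraries in 2 groups says nothing of shared control.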

How the data were processed

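RNA from K562 cells was sequenced on an Illumina instrument, with 3 libraries per group. The submitters' processing notes name fastp, HISAT2 and HTSeq with build hg38. Versions, annotation and the use of strand are not given in the sources used here. The values deposited by the authors are raw, unnormalized counts for each gene and FPKM values in which the counts are divided by 1 gene length and the library total. The dose of 2 mM comes from the study's text.

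Tests on counts used edgeR 4.0.16 (R 4.3.3). The default filterByExpr (minimum count 10, minimum total 15) kept 15095 of 24960 genes, TMM factors were applied, and the quasi-likelihood test had condition as its only term. P-values were adjusted by Benjamini-Hochberg over all tested genes. The script was tested on simulated counts with known changes. FPKM ratios were compared with exact permutation tests in scipy 1.17.1. Alternatives were DESeq2 1.42.0, limma 3.58.1 on FPKM with 1 or 0.1 added, other scalings and filters, the replicate number as a block, and the omission of each library in turn.

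The 10 genes and the gene lists were chosen with earlier results of these data known. Genes named are the 10, the partners of their ratios, up to 4 genes per list by smallest adjusted p and the 5 others most like HSPA5. CALR3, ATF6, MBTPS2, OS9, TRAP1, UGGT2 and the 4 genes named for their promoter element were added after their values were seen, and the marker genes form lists of their own, of which 2 genes are not reported here. Promoter windows are RefSeq's on GRCh38.p14, which held all 10 genes, and exon overlap is from GENCODE 29. Gene positions are RefSeq's. Depth was 35613283 to 36754725 counts per library.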

Additional observations from a re-analysis of the deposited data

How the results depend on the processing

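For each gene, 13 alternatives were fitted. The number of the 10 ER genes called lower was 9 and the number called higher was 0 in each of them, and CANX was called in none (adjusted p 0.0706 to 0.759 across edgeR, DESeq2 and limma). The number lower by over 2-fold was 7 and ranged from 5 to 7, since DNAJB11 and CRELD2 lie near that line. HSPA5 ranged from -2.48 to -2.32 and DNAJC3 from -0.54 to -0.36 on the log2 scale. The other list genes called lower numbered 27 (24 to 28 in alternatives) and those called higher 6 (6 to 9). Over all tested genes 23.2% were lower and 22.1% higher. The number of all genes called lower moved as well, between 2783 and 3618 in the alternatives. With a replicate block 9 of the ER genes were called lower and 25 list genes. The share of the 10 genes differed by -0.874 percentage points between hyperoside and control as a share of counts, and by -0.705 as a share of summed FPKM. Replicate numbers did not pair the libraries (correlations of deviations -0.081, -0.0327 and -0.0342), and the block changed no call of the 10 genes. All 9 ratios kept their direction in each alternative. Depth did not limit the 10 genes, whose lowest count was 378.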

Other observations

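The deposited tables assign genes to KEGG pathways, and 7 of the 10 ER genes stand in the one for protein processing in the endoplasmic reticulum. This list was taken up after the data had been seen. Without those 7 genes the pathway had 149 tested genes, of which 65 were lower and 18 higher, with a median log2 fold change of -0.16, against 23.2% lower and 22.1% higher over all tested genes. The 10 ER genes, with 9 lower and a median of -1.23, lay below that median, apart from CANX at -0.08.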
